A study of Mus musculus with 22 samples.

Results

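Ventricles that had lost both Lin9 and Sav1 were compared with control ventricles of the same stage. The double knockout is represented by 3 RNA-seq libraries and the control by 3, that is 6 of the 22 samples of the series. They were taken by their labels and column names in the count table of the experiment in which 12 libraries covered the 4 combinations of LIN9 and SAV1 genotypes. The remaining libraries of that experiment were LIN9 KO with wild-type Sav1 and Sav1 KO with LIN9 wt (3 each). They entered the same normalisation, count filter and fit, and so the estimates of spread behind the p-values. Beyond that, they and 6 libraries of a separate experiment on LIN9 alone are used below to show where the double knockout differs.

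Every embryo carried Nkx2.5-Cre, a recombinase made from the Nkx2.5 locus in cardiac precursor cells, and ventricles were isolated at E13.5 of embryonic development. Double knockout embryos were Lin9 fl/fl and Sav1 fl/fl, and control embryos had wild-type Sav1 and, according to the study, a floxed and an intact Lin9 allele, which the labels call wild-type. The deletion is thus limited to the descendants of Nkx2.5-expressing cells, whereas the RNA came from whole ventricles, in which other cells keep both genes. The labels number the libraries of a group from 1 to 3 without stating that each came from another embryo. A figure legend of the study describes its LIN9 comparison as biological replicates that were each done in triplicate. The p-values therefore measure the spread between these libraries only.

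LIN9 is a subunit of MuvB, a core complex that binds DNA through LIN54. Together with the transcription factor B-MYB (encoded by Mybl2) it forms the Myb-MuvB (MMB) complex, which activates genes needed for G2 and mitosis, and together with E2F4 and the pocket proteins p107 and p130 it forms the DREAM complex, which represses cell cycle genes in resting cells. SAV1 is a scaffold of the Hippo kinases, whose activity keeps the coactivator YAP out of the nucleus, where it would otherwise act with TEAD factors on growth genes. Cardiomyocytes of the fetal ventricle divide while they build sarcomeres and mitochondria, and the question of the design is how expression in Hippo-deficient cardiomyocytes depends on LIN9.

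The 6 libraries held between 2840053 and 2940111 reads assigned to genes, after the authors had normalised samples to the one with the fewest mappable reads. Values are given as CPM, the counts relative to TMM-normalised library sizes in edgeR's unit, and 1 count corresponds to between 0.332 and 0.356 CPM. Cardiac identity was clear in both groups, with Tnnt2, the troponin T of cardiomyocytes, at 4347, 4205 and 4237 CPM in control and at 2942, 2753 and 2636 CPM in double knockout ventricles. Of 7 marker genes of lung and liver, 1 (Ttr) had enough counts to be tested, and it was not called. Control replicate 1 stood apart from the other control libraries on the second principal component of the 12 libraries (29.0 against -12.9 and -13.7), and it carried fewer counts of several long transcripts. The gene for titin, Ttn, had 1714 CPM in control replicate 1 but 3690 and 3743 CPM in the other control libraries. Control replicates 2 and 3 were the most alike, with a chi-square of 1.22 per gene between their counts (4.84 and 5.08 for the pairs with replicate 1). A value of 1 is what the sampling of reads alone would give. Whether these libraries are independent samples cannot be told from the labels, and they were kept as separate libraries. None of 4 sex-linked genes tested was called, while Xist was listed but not tested. Their summed level ran from 109 to 168 CPM in control and from 90.7 to 179 CPM in double knockout libraries. The missing calls therefore do not show that the sexes were balanced. Each fold change below is a log2 difference, double knockout minus control. Its standard error (SE) was derived as the absolute fold change divided by the square root of the F statistic. The p-values come from the quasi-likelihood F test of edgeR, adjusted by Benjamini-Hochberg over all genes tested.

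The targeted genes were examined first. The floxed alleles remove only a stretch of each gene, so counts over the whole gene need not vanish. Sav1, on chromosome 12, reached 54.5, 56.2 and 61.9 CPM in control and 44.0, 40.5 and 42.3 CPM in double knockout ventricles. All double knockout libraries lay below all control libraries (-0.44, SE 0.12, adjusted p = 0.0087), although the call was lost without control replicate 3 (adjusted p = 0.053). Of the exonic length of Sav1, 25.4% lies under other genes. Lin9, on chromosome 1, reached 29.3, 28.1 and 23.2 CPM in control and 23.5, 26.1 and 18.5 CPM in double knockout ventricles. These groups overlapped, and the difference of -0.24 (SE 0.18, adjusted p = 0.39) was within the spread between libraries. In the LIN9 single knockout, Lin9 stood at 13.1, 15.4 and 17.9 CPM, below every library of both other groups. The gene-level count of Lin9 therefore does not by itself separate the libraries labelled double knockout from the control, and their LIN9 genotype rests on the labels.

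Of 17675 genes with a mean count above 1, 3647 differed between double knockout and control ventricles (20.6%), of which 1887 were higher (10.7%) and 1760 lower (9.96%) in the double knockout, and 5710 had an unadjusted p under 0.05 (32.3%). Increases were the larger changes. Among called genes, 697 rose by more than 1 log2 unit and 180 by more than 2, while 193 fell by more than 1 and 20 by more than 2 log2 units. The median called increase was 0.80 and the median called decrease -0.55, against a median of 0.03 over all genes. The 3 libraries of 1 group lay beyond the 3 of the other for 6612 genes (37.4%), 3501 of them higher (19.8%) and 3111 lower (17.6%) in the double knockout, and 3530 of the called genes were among them.

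**Figure D1:**
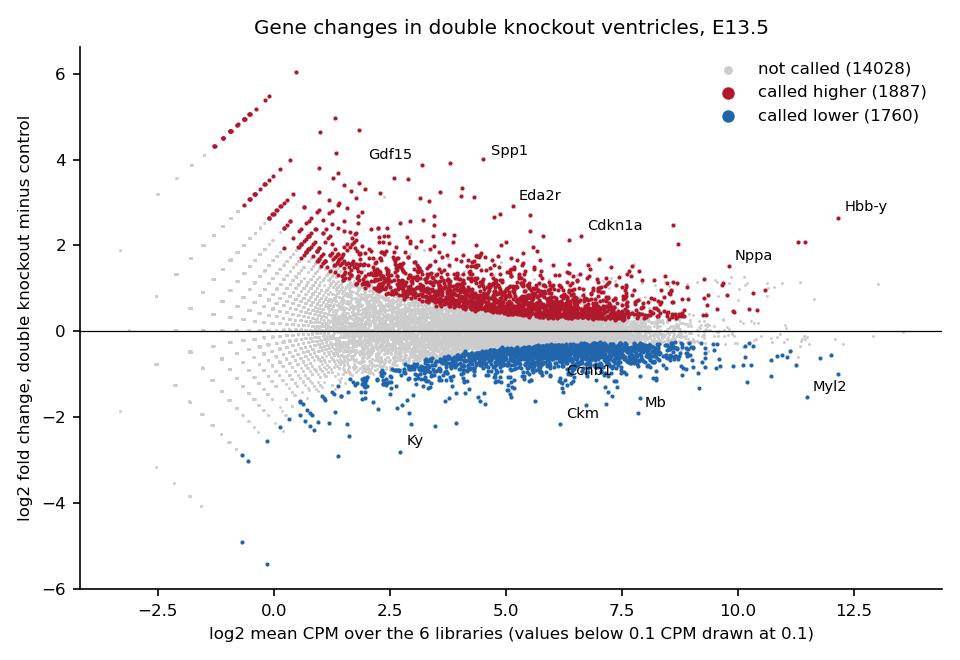
Log2 fold change of each of 17675 genes, double knockout minus control, against the log2 of its mean CPM over the 6 libraries; red points are the 1887 genes called higher, blue points the 1760 called lower, grey points all others. Spp1 and Gdf15 lie near 4 on the vertical axis, Ckm and Ky below -2, and the diagonal streaks on the left are genes with a few counts.

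Among genes with a mean of at least 5 CPM and no overlap between groups, Spp1 rose most. Spp1 encodes the secreted matrix protein osteopontin, and stood at 2.33, 2.06 and 3.46 CPM in control and 43.6, 40.5 and 44.5 CPM in double knockout ventricles (4.02, SE 0.23, adjusted p = 5.6e-13). Gdf15, a stress-induced cytokine, rose from 1.33, 1.03 and 1.04 CPM to 15.7, 18 and 18.1 CPM (3.88, SE 0.35). For both genes every double knockout library lay far above the control range. Further large increases were those of Scn3b, a sodium channel subunit (3.56), and the peptide hormone gene Uts2b (3.54). Uts2b was not called with the replicate block in the 6 libraries alone. Ano3 (3.34), the proapoptotic gene Pmaip1 (3.24), the erythroid membrane gene Ermap (3.16) and Hsd3b6 (3.12) came next. They were followed by the protease inhibitor gene A2m (3.10), the calcium channel gene Cacna1e (3.04) and Eda2r (2.91).

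Among the largest decreases, Ky, which encodes a Z-disc associated protein, fell from 14.0, 10.3 and 10.7 CPM to 2.39, 0.704 and 1.78 CPM (-2.81, SE 0.35, adjusted p = 1.1e-06). Cacng6, a regulatory subunit of calcium channels, fell by 2.20, Ckm, the muscle creatine kinase, by 2.18, Mb (myoglobin) by 1.92 and Prkag3, a muscle subunit of AMP-activated kinase, by 1.91 on the log2 scale. Ednrb, the endothelin receptor type B, stood at 210, 225 and 217 CPM in control and 62.4, 74.3 and 64.7 CPM in double knockout ventricles (-1.70, SE 0.11, adjusted p = 7.1e-12). The ephrin gene Efnb3 (-1.73, SE 0.11) and Slitrk5, a synaptic adhesion gene (-1.70, SE 0.19), fell to a similar degree, with no double knockout library near the control range. Slc26a10 (-2.15) and Tmem88b (-1.79) were also among the 12 largest decreases, together with the unnamed loci Gm13111 (-2.17) and E130317F20Rik (-1.71).

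Genes of G2 and mitosis were more often called lower than higher in the double knockout. Of 54 such genes tested, 23 fell, 3 rose and 28 were not called, with a median of -0.29, against 9.96% of all genes lower and 10.7% higher. Their summed level was between 3998 and 4926 CPM in control and between 3971 and 4055 CPM in double knockout ventricles, so the groups overlapped. Ccnb1, which encodes cyclin B1, the partner of CDK1 at entry into mitosis, stood at 93.4, 101 and 102 CPM in control and 45, 42.3 and 44.8 CPM in double knockout ventricles. No library overlapped, and the log2 fold change was -1.16 (SE 0.11, adjusted p = 1.8e-08). Plk1, a kinase of spindle assembly and mitotic exit, stood at 64.8, 51.0 and 54.6 CPM against 28.6, 20.8 and 33.1 CPM (-1.05, SE 0.16, adjusted p = 1.9e-05). Cdc20, the activator of the anaphase-promoting complex, stood at 78.1, 62.4 and 69.5 CPM against 42.3, 38.0 and 45.5 CPM (-0.74, SE 0.13, adjusted p = 8.3e-05). For both genes the highest double knockout library was below the lowest control library. The other decreases covered kinases (Aurka -0.81, Nek2 -0.75), the ubiquitin-conjugating enzyme Ube2c (-0.83), the centralspindlin subunit Racgap1 (-0.76), the chromosomal passenger Cdca8 (-0.75), the centromeric histone Cenpa (-0.73) and the mitotic kinesin Kif20a (-0.70).

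Not all mitotic genes moved in this direction. Psrc1, a microtubule regulator that is also a p53 target, rose from 25.6, 25.0 and 23.2 CPM to 46.4, 53.5 and 51.9 CPM (1.04, SE 0.13, adjusted p = 1.3e-06). The spindle checkpoint kinase gene Ttk (0.86, a call lost without double knockout replicate 1 or 2 or control replicate 1) and the cytokinesis kinase gene Cit (0.61) rose too. Aurkb, the kinase of the chromosomal passenger complex, had 50.9, 46.3 and 54.0 CPM in control and 42.3, 44.7 and 38.8 CPM in double knockout ventricles without passing the test (-0.26, SE 0.12, adjusted p = 0.14), and Birc5, its partner survivin, overlapped between the groups (-0.07, SE 0.10). Mki67, the gene for Ki67, had 137 CPM in control replicate 1 but 396 and 429 CPM in control replicates 2 and 3, so that the double knockout libraries at 223, 275 and 285 CPM fell inside the control range (-0.30, SE 0.48, adjusted p = 0.73). Without control replicate 1 the difference in Mki67 was -0.66 (adjusted p = 0.35).

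Of the 11 late cell cycle genes tested for which the study had designed PCR primers, 4 fell and none rose, against 9.96% and 10.7% of all genes. This list was chosen by the study as MMB targets and is not independent evidence of their direction. Ccna2, which encodes cyclin A2, stood at 207, 182 and 209 CPM in control and 97.1, 104 and 86.4 CPM in double knockout ventricles, again without overlap (-1.06, SE 0.10, adjusted p = 2.1e-08). Kif23, the kinesin of the central spindle, stood at 109, 128 and 126 CPM against 67.8, 73.6 and 74.0 CPM (-0.75, SE 0.11, adjusted p = 1.4e-05). Nusap1, a spindle microtubule protein, fell by 0.63 (SE 0.12) and Top2a, the topoisomerase of chromosome condensation, by 0.41 (SE 0.11, adjusted p = 0.010), although Top2a did not pass without control replicate 3 (adjusted p = 0.078). The other 7 genes did not pass the test.

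**Figure D2:**
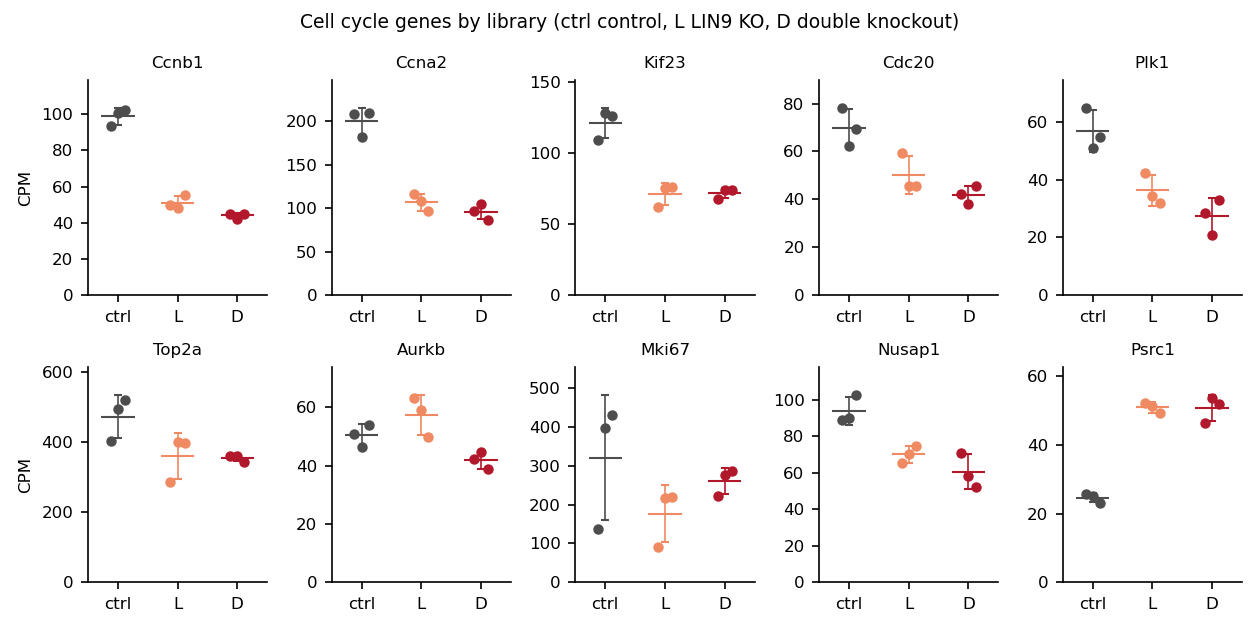
CPM of 10 cell cycle genes in each library of control (ctrl), LIN9 KO with wild-type Sav1 (L) and double knockout (D) ventricles; each point is a library, horizontal lines are means and bars are SDs (n = 3). Ccnb1, Ccna2, Kif23, Cdc20 and Plk1 are lower in all double knockout than in all control libraries, Psrc1 is higher, and Mki67 shows the low value of control replicate 1.

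Promoters of mitotic genes often carry a cell cycle genes homology region (CHR), to which MuvB binds through LIN54, together with CCAAT boxes bound by NF-Y. The letters TTTGAA were searched as the CHR and CCAAT as the CCAAT box, on both strands, in RefSeq windows of 300 bases around gene starts (250 bases before to 50 after, build GRCm38.p6). Of the 23 G2 and mitosis genes that fell, 19 had a window, and 14 of these held TTTGAA (73.7%) and 17 held CCAAT (89.5%), whereas 17.9% and 37.4% of all windows did. Among the members that did not fall, 26 had a window, of which 17 held TTTGAA (65.4%) and 17 held CCAAT (65.4%). Of the S phase genes that fell, 2 of 13 windows held TTTGAA (15.4%). The windows of 4 genes that fell are shown from 250 bases before to 30 after the gene start, 5′ to 3′ on the strand of the gene, because these genes lead the decrease or are those whose expression the study followed. Capitals mark TTTGAA in Cdc20, Kif23 and Top2a (TTCAAA where the match is on the opposite strand) and CCAAT in Ccnb1, whose window holds no TTTGAA. Cdc20 lies on the minus strand (chr4:118437314-118437593), as do Kif23 (chr9:61946770-61947049), Top2a (chr11:99024160-99024439) and Ccnb1 (chr13:100786457-100786736). The match begins 18 bases before the start of Cdc20 and 3 bases after that of Kif23.
Cdc20: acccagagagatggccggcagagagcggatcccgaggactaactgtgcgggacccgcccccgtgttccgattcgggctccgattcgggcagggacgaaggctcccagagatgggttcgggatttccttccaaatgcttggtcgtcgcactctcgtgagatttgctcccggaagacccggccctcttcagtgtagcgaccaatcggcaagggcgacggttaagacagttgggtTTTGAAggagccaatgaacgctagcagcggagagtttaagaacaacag
Kif23: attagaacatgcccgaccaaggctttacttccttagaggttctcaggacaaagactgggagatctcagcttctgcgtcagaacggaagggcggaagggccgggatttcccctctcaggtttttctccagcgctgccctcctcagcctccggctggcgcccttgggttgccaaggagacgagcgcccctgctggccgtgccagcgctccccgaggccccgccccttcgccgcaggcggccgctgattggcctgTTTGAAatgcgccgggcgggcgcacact
Top2a: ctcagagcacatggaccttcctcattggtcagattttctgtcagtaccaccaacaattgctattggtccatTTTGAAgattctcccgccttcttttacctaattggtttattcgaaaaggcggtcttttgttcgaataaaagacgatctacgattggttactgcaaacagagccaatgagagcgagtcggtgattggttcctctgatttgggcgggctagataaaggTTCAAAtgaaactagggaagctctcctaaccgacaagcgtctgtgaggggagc
Ccnb1: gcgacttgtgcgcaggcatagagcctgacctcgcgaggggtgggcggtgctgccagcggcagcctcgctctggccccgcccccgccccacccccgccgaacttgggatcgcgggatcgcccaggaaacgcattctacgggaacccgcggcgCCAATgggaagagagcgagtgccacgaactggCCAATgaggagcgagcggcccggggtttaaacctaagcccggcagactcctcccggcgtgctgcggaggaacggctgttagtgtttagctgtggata

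Of 11 genes for MuvB subunits and their partners, 4 fell and none rose, with a median of -0.24, against 9.96% of all genes lower. Their summed level was between 643 and 649.9 CPM in control and between 527 and 543 CPM in double knockout ventricles. Rbbp4, a histone-binding subunit shared with other chromatin complexes, fell by 0.50 (SE 0.11, adjusted p = 0.0010), E2f4 by 0.57 (SE 0.14) and Rbl1, the gene for p107, by 0.42 (SE 0.11). Foxm1, a forkhead factor that joins MMB on mitotic promoters, had 67.5, 74.7 and 71.3 CPM in control and 53.5, 52.5 and 61.2 CPM in double knockout ventricles (-0.35, SE 0.12, adjusted p = 0.037), and this call was lost with DESeq2 and without control replicate 2 or 3 or double knockout replicate 1 or 2. Mybl2 (0.18, SE 0.15) and the remaining MuvB subunit genes Lin37, Lin52 and Lin54 were not called.

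Among 54 genes of S phase and DNA replication, 14 fell and 1 rose, with a median of -0.13, against 9.96% and 10.7% of all genes. The decreases included the uracil glycosylase gene Ung (-1.18), the ribonucleotide reductase subunit Rrm2 (-0.78), E2f8 (-0.72), E2f1 (-0.61), Mcm2 of the replicative helicase (-0.57) and the replication clamp gene Pcna (-0.53). The DNA repair gene Brca1 was the member that rose (0.64). Without double knockout replicate 2, 9 S phase genes were lower instead of 14.

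Of 11 genes for D cyclins, their kinases Cdk4 and Cdk6 and inhibitors of cyclin-dependent kinases, 2 rose (1 inhibitor and 1 cyclin) and 3 fell, against 10.7% and 9.96% of all genes. Cdkn1a, which encodes p21 and is a principal target of p53, stood at 33.6, 37.3 and 33.6 CPM in control and at 163, 147 and 177 CPM in double knockout ventricles (2.22, SE 0.12, adjusted p = 2.4e-13). In contrast, Cdkn2c (p18) fell by 0.92 (SE 0.19), Cdkn2d (p19) by 0.89 and Cdkn1c (p57) by 0.71 (SE 0.11), although 30.7% of the exonic length of Cdkn1c lies under other genes. The cyclin gene Ccnd2 was called higher by 0.30 (adjusted p = 0.029), a call lost in 6 of 16 alternatives, and Ccnd1 did not pass the test (-0.20, SE 0.12).

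Of 21 Hippo pathway genes, 1 rose and 2 fell, Sav1 being a member that fell, with a median of 0.04. These counts are no larger than the shares of all genes called higher (10.7%) and lower (9.96%). Amot, the scaffold angiomotin that binds YAP, rose by 0.56 (SE 0.12, adjusted p = 0.0014), and Tead4, a DNA-binding partner of YAP, fell from 16, 14.4 and 8.65 CPM to 4.77, 8.10 and 5.69 CPM (-1.07, SE 0.26, adjusted p = 0.0040). Yap1 itself had 218, 178 and 180 CPM in control and 183, 198 and 212 CPM in double knockout ventricles, which overlap (0.04, SE 0.11). Its partner Wwtr1, the gene for TAZ, did not pass either (0.25, SE 0.10, adjusted p = 0.081).

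Of 20 genes taken as common YAP targets, 9 rose and none fell, with a median of 0.46, against 10.7% and 9.96% of all genes. Ccn1 (Cyr61), a matricellular growth regulator, stood at 50.2, 50.0 and 40.1 CPM in control and at 88.6, 98.3 and 104 CPM in double knockout ventricles (1.05, SE 0.13, adjusted p = 1.3e-06). Axl, a receptor tyrosine kinase, stood at 98.7, 93.9 and 90.6 CPM against 150, 188 and 196 CPM (0.92, SE 0.11, adjusted p = 5.2e-07). Both genes separated the groups completely. Myof (1.67, SE 0.16), Nt5e (0.98), the tissue factor gene F3 (0.94, a call lost in 4 of 16 alternatives), the phosphatase gene Ptpn14 (0.74), Ccn2 (Ctgf; 0.73, SE 0.14), Crim1 (0.52, lost in 2) and Dlc1 (0.40) also rose, while Ankrd1, a muscle gene often used as a YAP readout, was not called (0.20, SE 0.10, adjusted p = 0.19). In the LIN9 and Sav1 single knockouts, each compared with the same 3 control libraries, the medians over the list were 0.45 and 0.09. Several of these genes are active in fibroblasts and epicardial cells, whose summed markers went from between 4852 and 5442 CPM to between 8373 and 10832 CPM and from between 413 and 437 CPM to between 802 and 835 CPM, and the part of these cells in the increases was not tested. CATTCC, the core of the TEAD motif, was present on either strand in 4 of 7 windows of YAP targets that rose (57.1%), in 4 of 8 windows of the others (50.0%) and in 14.7% of all windows. The window of Axl (minus strand, chr7:25788704-25788983) is shown with this match in capitals, as GGAATG on the strand of the gene, since Axl has the smallest adjusted p-value among the members with the match.
Axl: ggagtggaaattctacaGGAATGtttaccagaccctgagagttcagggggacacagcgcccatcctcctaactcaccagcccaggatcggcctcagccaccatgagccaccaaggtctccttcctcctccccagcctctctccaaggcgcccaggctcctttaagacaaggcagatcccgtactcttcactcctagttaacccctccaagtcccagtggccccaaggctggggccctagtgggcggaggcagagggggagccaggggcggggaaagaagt

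The most uniform decrease was that of genes for mitochondrial energy metabolism. All 20 citric acid cycle genes fell (median -0.65), as did 38 of 40 nuclear genes of respiratory complexes II to V with cytochrome c (median -0.59) and 29 of 36 genes of complex I (median -0.59), against 9.96% of all genes, and none rose. Cyc1, the cytochrome c1 of complex III, stood at 421, 380 and 374 CPM in control and at 183, 172 and 195 CPM in double knockout ventricles (-1.10, SE 0.11, adjusted p = 3.8e-08). Sdhc, a membrane anchor of succinate dehydrogenase, stood at 256, 244 and 239 CPM against 127, 123 and 133 CPM (-0.95, SE 0.10, adjusted p = 1.4e-07), and the mitochondrial isocitrate dehydrogenase gene Idh2 at 1534, 1338 and 1348 CPM against 819, 819 and 808 CPM (-0.79, SE 0.10). The control libraries lay far above the double knockout libraries for all 3 genes. Idh3a (-0.92), Suclg2 (-0.81), Mdh2 (-0.64, SE 0.09), Ndufs6 (-0.86), Ndufb7 (-0.86), Ndufv1 (-0.66, SE 0.10), Atp5g3 (-0.83) and Atp5b (-0.79) are further members with large decreases. Citrate synthase (Cs), often used as a measure of mitochondrial content, fell by 0.51 (SE 0.12).

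The 13 respiratory genes encoded by mitochondrial DNA were less clear. Of these, 3 fell, namely mt-Nd1, mt-Nd2 and mt-Nd3, against 9.96% of all genes, and the median was -0.30. The gene mt-Nd1 had 4458, 5169 and 5164 CPM in control and 4042, 2474 and 3626 CPM in double knockout ventricles (-0.54, SE 0.14, adjusted p = 0.0087). mt-Cytb overlapped between the groups, with 4614, 5850 and 5898 CPM against 5245, 3396 and 4556 CPM (-0.31, SE 0.15, adjusted p = 0.16). Double knockout replicate 2 was the lowest of its group for both transcripts. The number of members called lower was 7 without a filter on low counts, 5 without double knockout replicate 1 and 1 without control replicate 2.

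Fatty acid uptake and oxidation followed the citric acid cycle, with 16 of 21 genes lower, 2 higher and a median of -0.55, against 9.96% and 10.7% of all genes. Eci1, an isomerase for unsaturated fatty acids, stood at 110, 94.6 and 107 CPM in control and 42.6, 46.8 and 44.1 CPM in double knockout ventricles (-1.22, SE 0.12, adjusted p = 1.2e-08). Acadm, the medium-chain acyl-CoA dehydrogenase, stood at 235, 238 and 229 CPM against 128, 120 and 125 CPM (-0.91, SE 0.09, adjusted p = 5.0e-08). The thiolase gene Acaa2 (-0.99), the fatty acid binding protein gene Fabp3 (-0.74) and Acsl1 (-0.70) fell as well, whereas the uptake genes Slc27a1 (0.57) and Cd36 (0.29, a call lost in 8 of 16 alternatives) were the ones that rose. AAGGTCA, the response element of oestrogen-related receptors, which drive many of these genes, was found on either strand in 4.72% of all promoter windows, in 1 of 15 windows of fatty acid genes that fell (6.67%) and 0 of 4 of the others, in 2 of 17 of citric acid cycle genes that fell (11.8%), in 5 of 30 windows of complex II to V genes that fell (16.7%) and in 2 of 25 of complex I genes that fell (8%) but 1 of 7 of those that did not (14.3%). The Acadm window (minus strand, chr3:153944614-153944893) is shown as the only one of a fatty acid gene with the match, in capitals as TGACCTT on the strand of the gene.
Acadm: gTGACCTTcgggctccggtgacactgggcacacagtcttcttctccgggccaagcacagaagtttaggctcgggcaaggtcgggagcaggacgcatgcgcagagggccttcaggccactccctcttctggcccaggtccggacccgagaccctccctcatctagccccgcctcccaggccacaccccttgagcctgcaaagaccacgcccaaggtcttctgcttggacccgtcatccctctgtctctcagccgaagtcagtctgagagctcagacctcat

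Of 13 regulators of these genes, 3 were lower and none higher, with a median of -0.23, against 9.96% and 10.7% of all genes. Esrra, the gene for oestrogen-related receptor alpha, fell by 0.50 (SE 0.11, adjusted p = 0.0016), Gabpa by 0.35 (a call lost in 5 of 16 alternatives) and Ppargc1a, the coactivator PGC-1 alpha, by 0.57 (SE 0.15, adjusted p = 0.010), the last without a call when control replicate 3 or double knockout replicate 1 or 3 was left out. In glycolysis, 4 of 20 genes fell and 2 rose (median -0.18), against 9.96% and 10.7% of all genes. The muscle forms Pgam2 (-0.73) and Pfkm (-0.41, SE 0.10) and the heart type lactate dehydrogenase Ldhb (-0.57) fell, while the glucose transporter gene Slc2a1 (0.47, SE 0.13, adjusted p = 0.010) and the hexokinase gene Hk2 (0.51, SE 0.16, adjusted p = 0.039) rose, both without a call when double knockout replicate 2 or control replicate 2 was left out. Ldha was not called (-0.10, SE 0.10).

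In the creatine system and energy buffering, 6 of 9 genes fell and 2 rose, against 9.96% and 10.7% of all genes. Ckm stood at 131, 117 and 105 CPM in control and at 23.2, 28.9 and 26.0 CPM in double knockout ventricles (-2.18, SE 0.14, adjusted p = 5.7e-12), and Mb, the oxygen store myoglobin, at 427, 324 and 349 CPM against 109, 113 and 67.9 CPM (-1.92, SE 0.20, adjusted p = 3.6e-05). The other creatine kinase genes tested rose: Ckb, the brain type, by 0.77 (SE 0.11, adjusted p = 5.4e-06) from 110, 105 and 110 CPM to 169, 190 and 194 CPM, and the mitochondrial form Ckmt2 by 1.78 (SE 0.22). Of the exonic length of Mb, 31.9% lies under other genes.

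Of 26 sarcomere genes tested, 16 fell and 1 rose, with a median of -0.55, against 9.96% and 10.7% of all genes. Their summed level dropped from between 36932 and 37708 CPM in control to between 20950 and 24902 CPM in double knockout ventricles. Actc1, Acta1, Tnnc1, Myom1, Myot and Xirp1 were listed too, but had too few counts in the table to be tested. The sum and the median therefore lack them, and the cause of their low counts was not tested. Myl2, the ventricular regulatory myosin light chain, stood at 4575, 4108 and 4170 CPM in control and at 1790, 1357 and 1264 CPM in double knockout ventricles (-1.54, SE 0.12, adjusted p = 7.5e-10). Tcap, the titin cap of the Z-disc, stood at 82.1, 73.0 and 70.6 CPM against 24.5, 24.3 and 23.8 CPM (-1.63, SE 0.13, adjusted p = 6.5e-10). Each of these genes was lower in every double knockout library than in any control library. The slow skeletal and cardiac troponin I genes Tnni1 (-1.19) and Tnni3 (-1.03, SE 0.10), Myl3 (-1.04), the ventricular and fetal myosin heavy chain Myh7 (-0.99, SE 0.21), Ldb3 (-0.98), Actn2 (-0.81) and Tnnt2 (-0.62, SE 0.09) also fell. Myom2, an M-band protein, was the exception and rose from 13.0, 12.7 and 10.7 CPM to 33.4, 59.2 and 62.6 CPM (2.09, SE 0.21, adjusted p = 1.5e-07). Myh6, the alpha myosin heavy chain, varied among double knockout libraries (1099, 1937 and 2764 CPM) so widely that it overlapped the control (2551, 2657 and 2608 CPM) and was not called (-0.43, SE 0.27, adjusted p = 0.32). Ttn was not called either (-0.61, SE 0.47), with the low control replicate 1 described above, but it was called with the replicate block in the 6 libraries alone (-0.56, adjusted p = 0.0061).

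**Figure D3:**
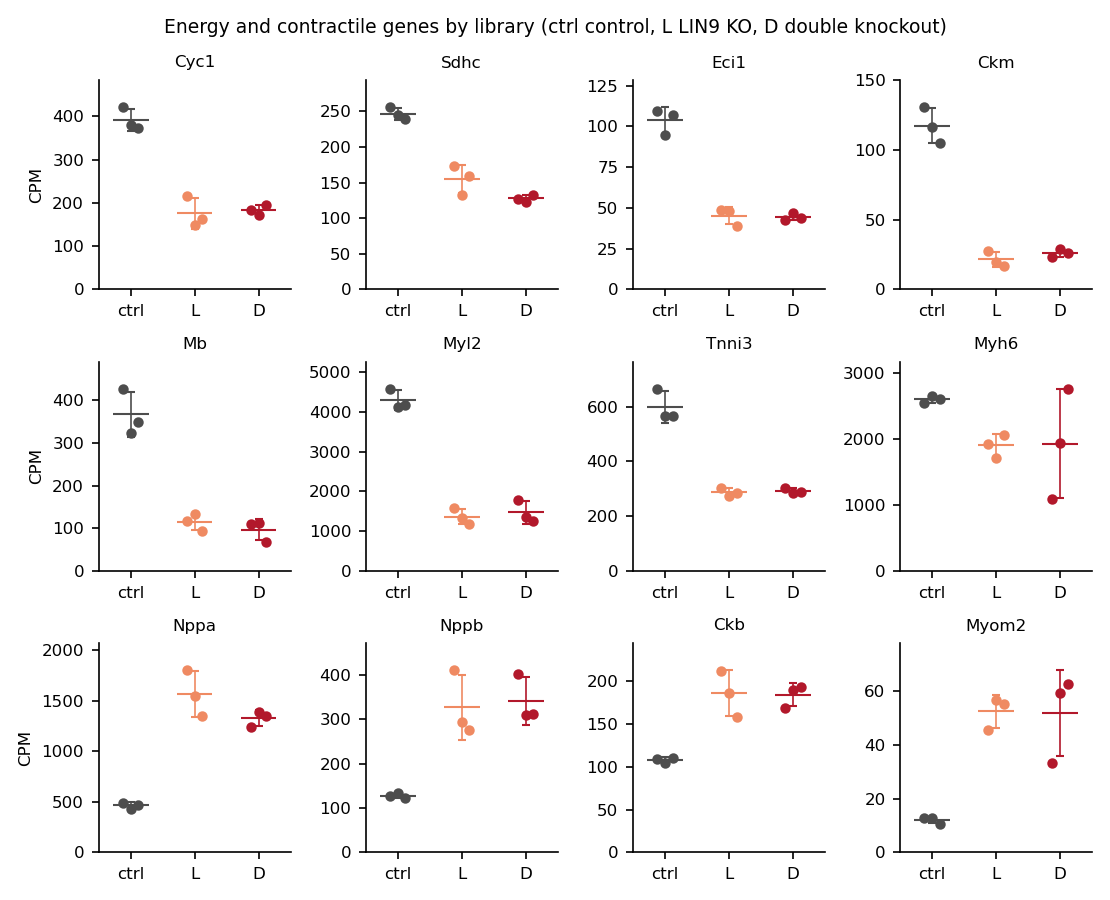
CPM of 12 energy and contractile genes in each library of control (ctrl), LIN9 KO with wild-type Sav1 (L) and double knockout (D) ventricles; points are libraries, lines are means and bars SDs (n = 3). Cyc1, Sdhc, Eci1, Ckm, Mb, Myl2 and Tnni3 are lower in every double knockout than in every control library, Nppa, Nppb, Ckb and Myom2 are higher, and Myh6 spreads from 1099 to 2764 CPM in the double knockout.

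The natriuretic peptide genes, which mark trabecular and strained myocardium, rose. Nppa stood at 491, 430 and 473 CPM in control and 1239, 1394 and 1354 CPM in double knockout ventricles (1.52, SE 0.14, adjusted p = 8.8e-08), and Nppb at 128, 134 and 122 CPM against 403, 310 and 311 CPM (1.41, SE 0.14, adjusted p = 9.1e-07). There was no overlap for either gene, but 61.5% of the exonic length of Nppa lies under other genes. The trabecular list as a whole was split, with 5 of 12 genes higher and 3 lower, against 10.7% and 9.96% of all genes. Bmp10 rose by 0.67, whereas Irx3, a factor of the ventricular conduction system, fell by 1.44 (SE 0.20). In compact myocardium, 5 of 12 genes rose and 3 fell, against 10.7% and 9.96% of all genes, and the number that rose was 2 without double knockout replicate 2 or control replicate 2 or 3. Those that fell included Mycn (-0.83) and Hey2 (-0.59, SE 0.11), a Notch-responsive repressor of the compact wall, and Vegfa was among those that rose. Of 12 atrial markers, 3 rose (Nppa, Bmp10 and Dkk3) and none fell, against 10.7% and 9.96% of all genes, and 5 rose in 7 of 16 alternatives, 1 of them without double knockout replicate 1.

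Among 19 cardiac transcription factor genes tested, 8 fell and none rose, against 9.96% and 10.7% of all genes. Srf was listed but had too few counts in the table to be tested. Irx4, a ventricle-specific homeobox factor, stood at 115, 101 and 102 CPM in control and 43.6, 46.5 and 35.9 CPM in double knockout ventricles (-1.33, SE 0.14, adjusted p = 1.5e-07). Myocd, the coactivator myocardin, fell by 0.95 (SE 0.12), Hand1 by 0.82, Nkx2-5, whose locus also drives the Cre, by 0.66 (SE 0.13), Prox1 by 0.65, Hopx by 0.41 (a call lost without control replicate 1) and Mef2d by 0.38. Gata4, by contrast, had 334, 327 and 324 CPM in control and 289, 327 and 334 CPM in double knockout ventricles (-0.05, SE 0.09).

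Calcium handling genes were called in both directions, with 3 of 18 higher and 5 lower, against 10.7% and 9.96% of all genes. The number lower was 3 without double knockout replicate 2 or 3 or control replicate 3. Pln was listed but had too few counts in the table to be tested. Atp2a2, the calcium pump SERCA2 of the sarcoplasmic reticulum, stood at 1678, 1575 and 1535 CPM in control and 710, 942 and 1102 CPM in double knockout ventricles (-0.80, SE 0.12, adjusted p = 1.4e-05), with no overlap. Jph2, which tethers the reticulum to the cell membrane, fell by 0.86, and Hrc (0.81), Itpr1 (0.53) and Casq2 (0.35, SE 0.10) rose, the calls of Itpr1 and Casq2 being lost in 4 and 3 of 16 alternatives. Of 21 ion channel and gap junction genes, 5 fell and 1 rose, against 9.96% and 10.7% of all genes. Gja1 (connexin 43) fell by 0.81 (SE 0.10, adjusted p = 1.5e-06), together with the potassium channel genes Kcnd2 (-1.44, a call lost without control replicate 2 or 3 or any 1 of the double knockout libraries), Kcnq1 (-0.71) and Kcnh2 (-0.66), while Kcnj2 rose (0.53).

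Targets of p53 rose as a group, with 19 of 28 higher, 1 lower (Perp, -0.33, a call lost without control replicate 3 or double knockout replicate 2) and a median of 0.79, against 10.7% and 9.96% of all genes. Their summed level was between 1249 and 1274 CPM in control and between 2145 and 2187 CPM in double knockout ventricles. Eda2r stood at 8.31, 5.82 and 10.7 CPM in control and at 64.4, 62.7 and 60.8 CPM in the double knockout (2.91, SE 0.20, adjusted p = 5.3e-11), and Pmaip1, the BH3-only gene Noxa, at 1.66, 2.74 and 2.42 CPM against 29.3, 20.8 and 15.3 CPM (3.24, SE 0.31, adjusted p = 1.0e-08). Both genes separated the groups widely. Dcxr (1.91), the repair polymerase gene Polk (1.46), Trp53inp1 (1.28, SE 0.17), Ccng1 (1.12), the death receptor gene Fas (1.10) and Mdm2, the ubiquitin ligase of p53 (0.53, SE 0.10), rose as well, with the calls of Fas and Polk lost in 5 and 3 of 16 alternatives. Transcripts of Trp53 itself and of the effector Bax (0.34, SE 0.13, adjusted p = 0.075) did not pass the test. In a wider list of 19 apoptosis genes, 2 rose (Apaf1, 0.86, and Bnip3) and 2 fell, among them Cycs (-0.78), which is also a respiratory gene, shares near those of all genes (10.7% higher and 9.96% lower).

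Genes of the integrated stress response were mixed, with 10 of 29 higher and 4 lower (median 0.12), against 10.7% and 9.96% of all genes. Trib3, a pseudokinase induced by this pathway, stood at 2.33, 1.37 and 2.77 CPM in control and at 9.88, 9.86 and 7.47 CPM in double knockout ventricles (2.05, SE 0.36, adjusted p = 0.00011), and Stc2 (0.98), Sesn2 (0.81), Ddit4 (0.80, a call lost in 4 of 16 alternatives) and Ppp1r15a (0.77) rose. Sesn2 and Ddit4 are also among the p53 targets counted as higher above, so these lists share genes. The serine synthesis gene Psat1 fell by 0.62 (SE 0.12). Transfer RNA synthetase genes Wars and Gars fell by 0.60 and 0.35, the call of Gars being lost in 3 of 16 alternatives. Of 13 hypoxia response genes, 9 rose and none fell (median 0.94), against 10.7% and 9.96% of all genes. Vegfa stood at 234, 268 and 274 CPM in control and 411, 649 and 431 CPM in double knockout ventricles (0.94, SE 0.19, adjusted p = 0.0048), Bnip3, a mitophagy receptor, at 28.6, 29.5 and 32.2 CPM against 53.5, 78.2 and 49.4 CPM (1.00, SE 0.16), and the collagen prolyl hydroxylase genes P4ha1 and P4ha2 rose by 1.51 and 1.45. Double knockout replicate 2 was the highest library for both Vegfa and Bnip3. Of 6 genes in a list of metallothioneins and the linker histone H1f0, 1 rose (Mt1), against 10.7% of all genes, and none without double knockout replicate 2.

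Markers of erythroid cells, macrophages, epicardium and fibroblasts were mostly higher in the double knockout, whereas those of endothelium did not share a direction. In bulk RNA, more cells of a type and more RNA per cell cannot be told apart, and neither can fewer cardiomyocytes and less cardiomyocyte RNA per cell. Erythroid markers made up 0.444, 0.361 and 0.371% of the TMM-normalised library size in control and 2.52, 1.58 and 0.863% in double knockout libraries, and 10 of 16 rose with none lower (median 2.11), against 10.7% of all genes higher. Hbb-y, an embryonic globin, stood at 1451, 1121 and 1220 CPM in control and at 12266, 7569 and 3908 CPM in the double knockout (2.65, SE 0.42, adjusted p = 0.0026). The 3 double knockout libraries differ more from each other in this marker than the control libraries do. The adult globin genes Hba-a1 (2.09, SE 0.38), Hbb-bs (1.27) and Hbb-bt (1.26) have near-identical copies among which the counting can divide reads, and Hbb-bs and Hbb-bt were not called, although Hbb-bs was in 6 and Hbb-bt in 4 of 16 alternatives. The part of erythroid RNA in the other differences was not tested.

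Macrophage markers rose in 13 of 17 cases with none lower (median 1.20), against 10.7% of all genes higher, and their sum went from 158, 164 and 157 CPM in control to 315, 347 and 359 CPM in double knockout ventricles. Csf1r, the receptor on which macrophages depend, stood at 28.9, 23.0 and 24.2 CPM against 43.3, 69.0 and 62.6 CPM (1.20, SE 0.18, adjusted p = 4.5e-05), and Fcgr1 (2.13), Fcer1g (1.54), the complement genes C1qb (1.50), C1qc (1.25) and C1qa (1.04) and Adgre1, the gene for F4/80 (1.11), rose alongside. Cd14 had 1 count in the 3 control libraries together (0.332, 0 and 0 CPM) and 3.07, 2.82 and 1.42 CPM in the double knockout, a call lost with DESeq2. Epicardial markers rose in 11 of 13 cases (median 1.13), against 10.7% of all genes. Wt1, a factor of the epicardium, stood at 41.9, 35.3 and 38.0 CPM in control and at 90.3, 107 and 87.5 CPM in the double knockout (1.31, SE 0.12, adjusted p = 9.6e-09), and the epithelial keratin gene Krt8 at 6.32, 5.82 and 4.50 CPM against 20.1, 25.0 and 25.3 CPM (2.07, SE 0.23, adjusted p = 1.7e-07). Both were higher in every double knockout library. Tbx18 was not called (0.13, SE 0.16).

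Fibroblast and cushion mesenchyme markers rose in 12 of 16 cases (median 0.81), and collagens and other matrix genes in 22 of 30 (median 0.89), against 10.7% of all genes, with none lower in either list. The 2 lists share genes, among them Col1a1, Col1a2 and Postn. Col1a1, a chain of fibrillar collagen, stood at 588, 509 and 467 CPM in control and at 899, 1159 and 1230 CPM in double knockout ventricles (1.07, SE 0.17, adjusted p = 0.00053), and Col1a2 at 565, 512 and 460 CPM against 905, 1146 and 1324 CPM (1.13, SE 0.14, adjusted p = 1.5e-05). In both genes double knockout replicate 1, the library with the most erythroid counts, was the lowest of its group. Col6a1 (1.49), Col8a1 (1.47), the crosslinking enzyme gene Lox (1.21), Mmp2 (1.19) and the fibroblast receptor gene Pdgfra (1.03) rose too. Of 10 smooth muscle markers, 4 rose (10.7% of all genes), namely Notch3 (1.11), Pdgfrb (1.07), Tagln (0.95, SE 0.10), with 67.9% of its exonic length under other genes, and Mylk (0.90), while Acta2 was not called (-0.09, SE 0.10).

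Endothelial and endocardial markers did not share a direction, with 4 of 20 higher and 3 lower and a median of 0.01, against 10.7% and 9.96% of all genes, and the number higher was 2 with DESeq2, limma voom or without robust estimates. Emcn (0.90, SE 0.13, adjusted p = 8.2e-06), Sox17 (0.68), Pecam1 (0.46, SE 0.11) and Flt1 (0.40) rose, and the flow-responsive factor Klf2 (-1.03), the tight junction gene Cldn5 (-0.90) and the VEGF receptor gene Kdr (-0.74) fell. The calls of Sox17, Flt1 and Cldn5 were lost in 9, 8 and 6 of 16 alternatives. Cdh5, VE-cadherin, did not pass (-0.30, SE 0.14, adjusted p = 0.15). Their summed level was between 1763 and 1789 CPM in control and between 1714 and 2007 CPM in double knockout ventricles, so the groups overlapped.

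**Figure D4:**
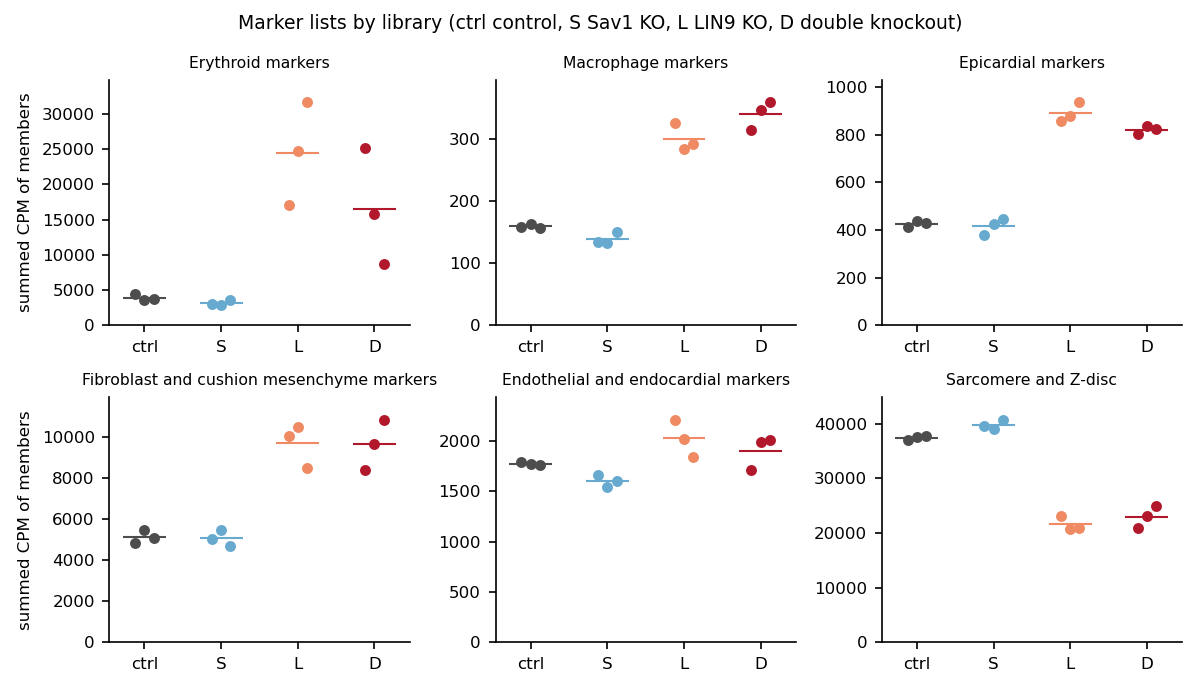
Summed CPM of the tested members of 6 marker lists in each library of control (ctrl), Sav1 KO (S), LIN9 KO (L) and double knockout (D) ventricles. Points are libraries and lines are means. Erythroid, macrophage, epicardial and fibroblast sums are higher in every double knockout than in every control library, the sarcomere sum is lower, and the endothelial sums overlap.

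The double knockout was next set beside the single knockouts of the same experiment, which were compared with the same 3 control libraries. Between LIN9 KO and control, 4103 genes were called (23.2%), 2254 of them higher (12.8%) and 1849 lower (10.5%), and between Sav1 KO and control 3 (0.017%), of which 2 were higher (0.0113%) and 1 lower (0.00566%), with 693 at an unadjusted p under 0.05 (3.92%). The direct test of double knockout against LIN9 KO called 2 genes (0.0113%), both lower in the double knockout, while 2093 genes (11.8%) had an unadjusted p under 0.05. Mt1, a metallothionein, stood at 67.7, 93.8 and 70.5 CPM in LIN9 KO, 45.3, 51.1 and 36.6 CPM in double knockout and 33.6, 27.8 and 27.3 CPM in control ventricles (double knockout minus LIN9 KO -0.80, SE 0.14, adjusted p = 0.030). H1f0, a linker histone of differentiated cells, stood at 537, 576 and 443 CPM in LIN9 KO but at 313, 375 and 313 CPM in double knockout ventricles (-0.64, SE 0.11, adjusted p = 0.030), where it overlapped the control at 338, 293 and 293 CPM. Mt1 was the only 1 of the 3647 called genes that also differed between double knockout and LIN9 KO by this test.

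That number depended on the libraries and settings. It was 356 without LIN9 KO replicate 3, 309 without a filter on low counts and 77 with DESeq2, but 0 with limma voom, without robust estimates or at a mean count of at least 10. A result below the threshold does not show that the genotypes act alike. Over the 1887 genes called higher against control, the difference between double knockout and LIN9 KO had a median of 0.01 with quartiles of -0.16 and 0.20, and over the 1760 called lower a median of -0.07 with quartiles of -0.19 and 0.06, at a median standard error of 0.14. The LIN9 KO medians against control over the same genes were 0.80 and -0.50, and those of Sav1 KO 0.01 and 0.01. As these genes were called with the shared control libraries, the values are a description.

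For single members the 2 knockouts can be placed side by side. Ccnb1 was at -1.16 in the double knockout and -0.95 in LIN9 KO against control (difference -0.21, SE 0.12), Myl2 at -1.54 and -1.65 (0.11, SE 0.12), Cdkn1a at 2.22 and 2.16 (0.06, SE 0.10), and Cyc1 at -1.10 and -1.15 (0.06, SE 0.11). None of these differences passed the test. Spp1 was at 4.02 and 3.30 (0.71, SE 0.15, adjusted p = 0.077), with 30.6, 25.3 and 22.4 CPM in LIN9 KO, below all double knockout libraries. In the Sav1 KO the same genes lay at -0.07 (Ccnb1), -0.06 (Myl2), -0.04 (Cdkn1a), 0.01 (Cyc1) and 0.71 (Spp1).

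Some lists lay further apart between double knockout and LIN9 KO than others. Respiratory genes of mitochondrial DNA had a median of -0.30 in the double knockout and -0.86 in LIN9 KO, and all 13 had an unadjusted p under 0.05 between the 2 genotypes, higher in the double knockout, though none passed after adjustment. The double knockout median ran from -0.46 to -0.16 over the 16 alternatives. For LIN9 KO of the separate experiment the median was -0.40. In glycolysis, 13 of 20 genes had an unadjusted p under 0.05, against 11.8% of all genes, with a median difference of -0.25, and again none passed. The erythroid median was 2.11 against 2.71, that of hypoxia genes 0.94 against 1.28 and that of metallothioneins with H1f0 0.35 against 0.70. In LIN9 KO of the separate experiment these medians were 2.59, 0.80 and 0.41. In contrast, the medians of the G2 and mitosis list (-0.29 and -0.27), of citric acid cycle genes (-0.65 and -0.66) and of p53 targets (0.79 and 0.84) were close. Epicardial markers had medians of 1.13 and 1.14, but the median difference of their members between the genotypes was -0.20, with 3 of 13 at an unadjusted p under 0.05 (11.8% of all genes). In Sav1 KO the G2 and mitosis median was 0.11, the S phase median 0.10 and the erythroid median -0.27, without a called member in these lists.

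**Figure D5:**
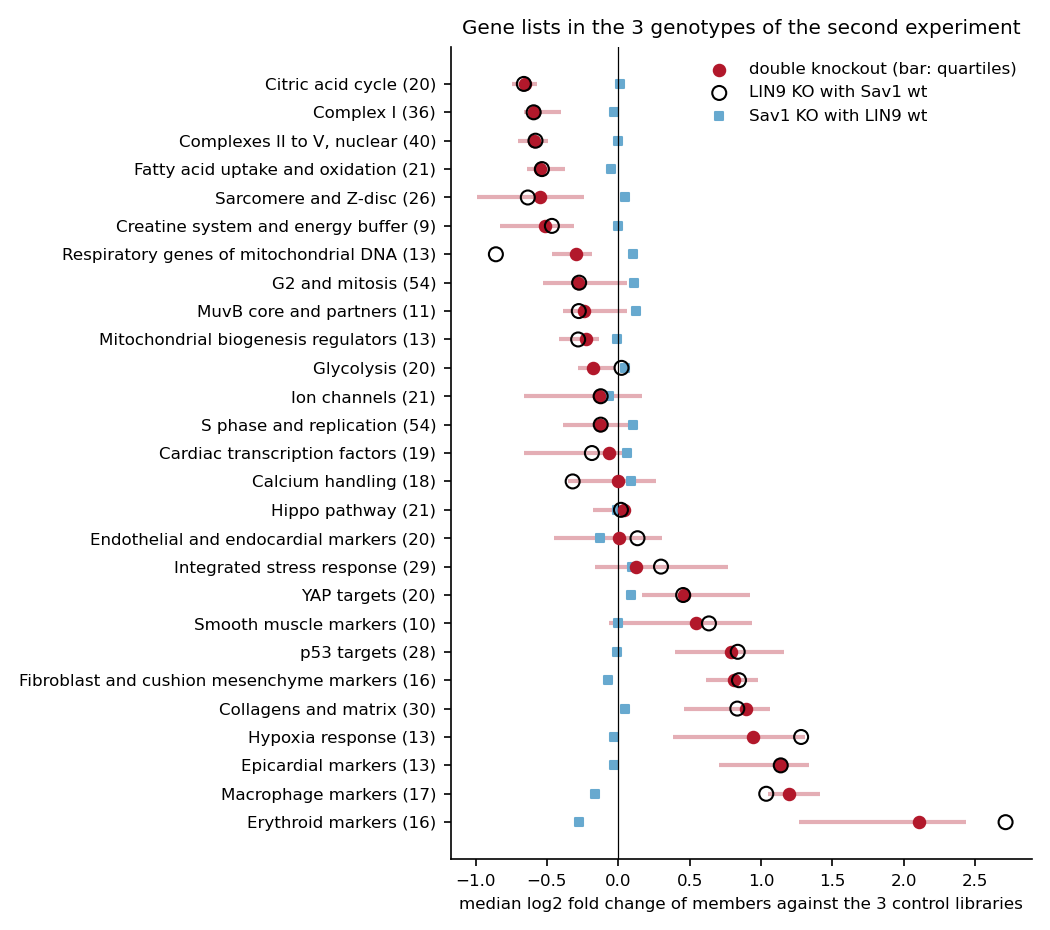
Median log2 fold change of 27 gene lists against the same 3 control libraries in the double knockout (red, bar from the lower to the upper quartile of members), LIN9 KO with wild-type Sav1 (open circles) and Sav1 KO with LIN9 wt (blue squares); the number of genes tested is in parentheses. Red and open symbols lie close for most lists and apart for respiratory genes of mitochondrial DNA (-0.30 and -0.86) and erythroid markers (2.11 and 2.71), and blue squares lie between -0.27 and 0.13.

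The interaction, that is the SAV1 effect in LIN9 KO ventricles minus the SAV1 effect in LIN9 wt ventricles, was called for 0 of 17675 genes by edgeR, with 1156 genes (6.54%) at an unadjusted p under 0.05 and 0 by DESeq2. It was called for 64 genes without LIN9 KO replicate 3 and for 17 without a filter on low counts. For Mt1 the interaction was -0.89 (SE 0.21, adjusted p = 0.48) and for Spp1 it was 0.01 (SE 0.64).

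The separate experiment offers libraries and controls of its own. There, LIN9 KO was compared with LIN9 wt at E13.5 (3 libraries each, between 9485599 and 9615274 counts), with no SAV1 genotype in the labels. Of 19752 genes, 4131 were called (20.9%), 2199 higher (11.1%) and 1932 lower (9.78%), with 6341 (32.1%) at an unadjusted p under 0.05. Of 17656 genes tested in both experiments, 2419 were called in both, 2418 of them in the same direction (1288 higher and 1130 lower). These make up 66.3% of the double knockout calls and 59.3% of the separate LIN9 KO calls. The exception was Itgb3, an integrin subunit, at -0.60 in the double knockout and 0.56 in the separate experiment, and its double knockout call was lost in 4 of 16 alternatives. Log2 fold changes had a Pearson r of 0.656 across genes, which are not independent replicates. The comparisons differ in depth as well as in SAV1 deletion, which the labels name for the double knockout only. These cannot be told apart here for calls made in 1 experiment alone.

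The same gene lists were counted in that experiment, where 9.78% of all genes were lower and 11.1% higher. Of the G2 and mitosis list 19 of 54 genes were lower and 3 higher (median -0.22), of citric acid cycle genes 19 of 20 were lower (median -0.61), of sarcomere genes 15 of 27 were lower (median -0.67), of p53 targets 19 of 28 were higher (median 0.71) and of macrophage markers 13 of 17 were higher (median 1.03). Ccnb1 was at -0.92 (SE 0.11), Myl2 at -1.48 (SE 0.17), Cdkn1a at 2.08 (SE 0.10), Ednrb at -1.83 (SE 0.15) and Spp1 at 2.89 (SE 0.36). Mki67, within the control range in the double knockout comparison, was lower in the separate experiment, with a mean of 140 CPM in LIN9 wt and 87.0 CPM in LIN9 KO libraries (-0.68, SE 0.14, adjusted p = 0.0024). Ccn1, which rose in the double knockout, was not called (0.42, SE 0.21, adjusted p = 0.21), whereas Axl was (0.82, SE 0.12). YAP targets were higher in 9 of 21 cases with a median of 0.41, against 11.1% of all genes.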

How the data were processed

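RNA was sequenced from mouse heart ventricles at E13.5 in 18 libraries (2 experiments), of which the 3 double knockout and 3 control libraries are the subject here. The authors mapped the reads with TopHat (2.1.0) and Bowtie2 to mm10, normalised samples to the one with the fewest mappable reads and counted reads per Ensembl gene (GRCm38.p6) with summarizeOverlaps. They deposited these whole-number counts without further normalisation. The 2 experiments did not share a common depth, with 2770741 to 2999877 counts per library in the second and 9485599 to 9615274 in the separate experiment. Overlap mode and strandedness are not given in the sources used here, so reads of overlapping genes cannot be told apart. The deposited tables of the authors' edgeR comparisons (log2 fold changes, log2 CPM, p-values and FDR) and the 4 ChIP-seq samples were not used.

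Of 48709 identifiers, 4 were duplicated and used a single time, and 48349 matched the GENCODE M21 annotation for symbols and positions. Counts of all 12 libraries of the second experiment were normalised by TMM and fitted together by edgeR's quasi-likelihood test with robust estimates (R 4.3.3, edgeR 4.0.16), for genes with a mean count above 1. Groups were compared as contrasts and p-values adjusted by Benjamini-Hochberg over all 17675 genes, with a threshold of 0.05 for a call. The separate experiment was fitted alone. 3 libraries against 3 cannot give an exact permutation p below 0.1. Per-library CPM values come from the same normalisation. List counts, medians and sums are over tested members, so listed genes with a mean count of 1 or less are left out. The 36 gene lists and the comparison itself were chosen with earlier results of these data known. Named genes are the core members of the lists, the strongest called member of each list in each direction, the 12 largest called increases and decreases at a mean of at least 5 CPM without overlap, and genes called against LIN9 KO, and further list members were named after their values had been seen. Promoter windows are from RefSeq (GRCm38.p6). The alternatives were DESeq2 (1.42.0), limma voom (3.58.1), other scaling factors, other filters on low counts, a fit of the 6 libraries alone, a fit without robust estimates, a replicate block and leaving out each library. The fitting steps were tested on simulated data. Some genes that the naming rule selects are not reported here.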

Additional observations from a re-analysis of the deposited data

How the results depend on the processing

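Of 16 alternatives for the double knockout against control, 15 gave a count within 1.5 times of 3647, and it was 2418 without double knockout replicate 2 (2418 to 3377 when 1 library was left out). The count against LIN9 KO moved most, from 2 to 4 with upper quartile factors, 309 without a filter, 0 at a mean count of at least 10, 77 with DESeq2, 0 with limma voom and 0 without robust estimates, and from 0 (without double knockout replicate 3) to 356 (without LIN9 KO replicate 3) with 1 library left out (15 without double knockout replicate 2). The interaction gave 17 genes without a filter and 0 to 64 with 1 library left out. The separate experiment gave 2732 to 4238 with 1 library left out, the lowest without LIN9 wt replicate 3, and up to 5001 over its 7 alternatives.

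Replicate numbers did not pair the libraries, since same-numbered double knockout and control libraries correlated at -0.029, 0.065 and -0.091 in their deviations from the group means. Between double knockout and LIN9 KO libraries of the same number the correlations were -0.022, 0.142 and -0.099. With the replicate block, 84 genes differed between double knockout and LIN9 KO, 7 glycolysis genes were lower and 5 atrial markers higher, and with the block in the 6 libraries alone 3 compact myocardium genes were higher. The block moved no other count by more than 1.5 times, and the calls of single genes that it ended or added are among those given by gene here.

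For the lists, members lower without a filter were 7 for mitochondrial DNA and 7 for glycolysis. Atrial markers higher were 5 without a filter, with DESeq2, with limma voom, in the 6 libraries alone and without robust estimates. Endothelial markers higher were 7 at a mean count of at least 10 and 2 with DESeq2, limma voom or without robust estimates. Compact myocardium genes higher were 3 in the 6 libraries alone, and at a mean count of at least 10, 4 apoptosis genes and 2 metallothionein list genes were higher. With 1 library left out, the ranges were 9 to 14 for S phase genes lower (9 without double knockout replicate 2), 1 to 3 for Hippo genes lower (1 without control replicate 3), 1 to 5 for mitochondrial DNA genes (1 without control replicate 2), 3 to 5 for glycolysis genes lower, 1 to 4 for biogenesis regulators (1 without double knockout replicate 3 or control replicate 3), 3 to 5 for calcium genes lower (3 without double knockout replicate 2 or 3 or control replicate 3), 2 to 5 for compact myocardium (2 without double knockout replicate 2 or control replicate 2 or 3), 3 to 5 for atrial markers (5 without double knockout replicate 1), 2 to 6 for endothelial markers (2 without replicate 2 or 3 of either group), 2 to 3 for apoptosis genes, 0 to 1 for metallothioneins (0 without double knockout replicate 2) and 0 to 1 for lung and liver genes (1 without control replicate 1). The cause was not tested. Of 188 called genes named here, 157 were called in every alternative that tested them. Among these, Fcgr1 was tested in 15 of the 16. The other 31 lost the call in at least 1, with no change of sign. Calls were lost in DESeq2's Wald test for Cd14, Cd36, Cldn5, F3, Fas, Flt1, Foxm1, Gabpa, Itgb3 and Sox17, in limma voom for Cldn5, Flt1 and Sox17, with no filter on low counts for Cd36, in a fit of only the 6 libraries of both groups for Ccnd2 and Cd36, without robust estimates for Cldn5, Flt1 and Sox17, with the replicate block in those 6 libraries for Ccnd2, Cd36, Sox17 and Uts2b. Leaving out control replicate 1 ended the calls of Cd36, Cldn5, Crim1, Ddit4, Fas, Flt1, Gars, Hk2, Hopx, Itpr1, Polk, Postn, Ttk and mt-Nd3. Leaving out control replicate 2 ended the calls of Casq2, Ccnd2, Cd36, Ddit4, F3, Flt1, Foxm1, Gabpa, Hk2, Itgb3, Kcnd2, Polk, Slc2a1, Sox17, mt-Nd2 and mt-Nd3. Leaving out control replicate 3 ended the calls of Casq2, Ccnd2, Cd36, Cldn5, Ddit4, Fas, Flt1, Foxm1, Gabpa, Itpr1, Kcnd2, Perp, Ppargc1a, Sav1, Sox17 and Top2a. Leaving out double knockout replicate 1 ended the calls of Casq2, Cd36, Fas, Foxm1, Gars, Itgb3, Kcnd2, Postn, Ppargc1a, Sox17 and Ttk. Leaving out double knockout replicate 2 ended the calls of Ccnd2, Cldn5, Crim1, Ddit4, F3, Flt1, Foxm1, Gabpa, Gars, Hk2, Itgb3, Itpr1, Kcnd2, Mt1, Perp, Polk, Postn, Slc2a1, Sox17 and Ttk. Leaving out double knockout replicate 3 ended the calls of Ccnd2, F3, Fas, Flt1, Gabpa, Hk2, Itpr1, Kcnd2, Postn, Ppargc1a and Sox17. Named genes not called were called in DESeq2's Wald test (Hbb-bs and Hbb-bt), in limma voom (Hbb-bs and Hbb-bt), at a mean count of at least 10 (Bax, Hbb-bs and Wwtr1), with no filter on low counts (Cdh5 and mt-Cytb), in a fit of only the 6 libraries of both groups (Cdh5), without robust estimates (Hbb-bs and Hbb-bt), with the replicate block (Wwtr1), with the block in the 6 libraries of both groups (Cdh5, Hbb-bs and Ttn), without control replicate 1 (Ttr), without double knockout replicate 1 (mt-Cytb), without double knockout replicate 3 (Hbb-bs, Hbb-bt and Myh6). Signs changed for 2 uncalled genes, Yap1 (-0.03 to 0.14 with 1 library left out) and Gata4 (-0.093 to 0.0091, highest without double knockout replicate 1). At this depth 3 counts correspond to about 1 CPM, which limits genes of low level.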

Other observations

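Within 10 Mb of Lin9, 37 of 170 genes tested were called between double knockout and control (21.8%), 21 higher and 16 lower, and within 10 Mb of Sav1 15 of 100 (15%), 8 higher and 7 lower, against 20.6% of all genes.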
